A study of Homo sapiens with 18 samples.

Results

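PEG10 and SGCE are neighbouring genes on the long arm of human chromosome 7 that start head to head. Both were followed in every library of a study of protein kinase R (PKR, encoded by EIF2AK2) in pancreatic cancer cells, and they are 2 of the 26485 genes listed in each expression table. The pair was selected on its measured values in the PKR siRNA 2 libraries, where PEG10 was among the lowest genes relative to control while SGCE was near its control level. Values that involve the PKR siRNA 2 libraries are therefore given for these genes as a description, with no test.

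The cells were PANC-1, an established epithelial line from a human pancreatic ductal adenocarcinoma, and poly(A) RNA was sequenced 72 h after treatment in bulk. In run 1, the cells were transfected with a control siRNA or with either of the siRNAs named PKR siRNA 1 and PKR siRNA 2, and received no inhibitor. In run 2, they received DMSO as the vehicle, or the PKR inhibitor C16 at 400 nM or 800 nM, and no siRNA. Each of the 6 groups had 3 libraries, all from this single cell line. The runs were normalised apart, so values were compared only within the siRNA table or within the C16 table.

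Reads assigned to genes numbered 1512940 to 1873906 per siRNA library and 894145 to 1474308 per library of the C16 experiment. In the control, PKR siRNA 1 and PKR siRNA 2 libraries, EIF2AK2 had 97.4 ± 5.21, 11.1 ± 2.19 and 8.65 ± 0.726 normalised counts (SD, n = 3 each), so the target was low in every library that carried a PKR siRNA label. With DMSO, C16 at 400 nM and C16 at 800 nM it had 49.8 ± 4.20, 42.5 ± 3.26 and 49.9 ± 1.38 (SD, n = 3 each). Epithelial and ductal markers were present in all groups, whereas acinar and endocrine markers were at or near 0.

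PEG10 derives from an ancient retrotransposon and still encodes Gag-like and Pol-like reading frames, the latter reached by a ribosomal frameshift. SGCE encodes epsilon-sarcoglycan, a membrane protein of the dystrophin-associated complex that is altered in inherited myoclonus-dystonia. Both are imprinted and transcribed from the paternal allele, in opposite directions from a shared promoter region that is methylated on the maternal allele. PEG10 is best known from placenta and from several tumour types, among them liver cancer.

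In hg38, the gene models of the tables placed PEG10 at chr7:94656325-94669694 on the plus strand and SGCE at chr7:94585224-94656209 on the minus strand, with 115 bases between the starts. The PEG10 model had 2 exons, of 267 and 6361 bases, and 35.5% of its 6628 exon bases were coding. The rest of it was mostly a long 3′ UTR. The SGCE model was shorter, with 13 exons and 1810 exon bases, of which 80.4% were coding. These models shared no bases, but 219 bases (3.30%) of the PEG10 exons lay within SGCE exons of GENCODE release 44 on the other strand. In the models of the tables those bases belong to PEG10 alone, and the strand setting used in counting is not given in the sources used here.

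An siRNA guide can also lower RNAs other than its target when its seed, guide positions 2 to 8 from the 5′ end, pairs with them. The exons of both genes were therefore searched on the sense strand for the letters that pair with these seeds (AGAGATA for PKR siRNA 1, AAGTAAT for PKR siRNA 2). The sequences below show the intended sites in EIF2AK2 followed by each match in PEG10, 5′ to 3′ on the sense strand of hg38, with capitals marking the bases that face the seed.
PKR siRNA 1 site in EIF2AK2: gcagatacatcAGAGATAa
PKR siRNA 2 site in EIF2AK2: gatcttaagccAAGTAATa
PEG10 match 1 to PKR siRNA 2: atgttaaggatAAGTAATtctaa
PEG10 match 2 to PKR siRNA 2: atcaaatcgtgAAGTAATacagt
PEG10 match 3 to PKR siRNA 2: taatcaagtttAAGTAATagggg
PEG10 match 4 to PKR siRNA 2: gagggactattAAGTAATtttaa

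The EIF2AK2 site of PKR siRNA 1 lay at chr2:37138311-37138329 on the minus strand, in coding sequence. That of PKR siRNA 2 crossed an exon junction, with 9 bases at chr2:37119959-37119967 and 10 bases at chr2:37114850-37114859 on the minus strand. PEG10 matched the PKR siRNA 2 seed at 4 places, all in the 3′ UTR of exon 2, and the PKR siRNA 1 seed at 0. In the order shown, the printed stretches lay on the plus strand at chr7:94668268-94668290, chr7:94668770-94668792, chr7:94669128-94669150 and chr7:94669179-94669201. Matches 3 and 4 started 51 bases apart. SGCE matched the PKR siRNA 2 seed at 0 places and the PKR siRNA 1 seed at 1, in coding sequence. The PEG10 stretches shared 9 or 10 of 19 bases with the EIF2AK2 site, the 7 facing the seed included. The most similar stretch of 19 bases anywhere in PEG10 had 13 identical bases for PKR siRNA 1 and 14 for PKR siRNA 2, and in SGCE 13 and 12.

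A long RNA holds more matches to any short motif, so the counts were set beside windows of the same length at the 3′ end of other gene models. Of the 1387 tested models at least as long as that of PEG10, itself included, 40.0% matched the PKR siRNA 2 seed at least once and 1.30% at 4 or more places. The PKR siRNA 1 seed was matched in 37.1%. Of the 8528 tested models at least as long as that of SGCE, 10.45% matched the PKR siRNA 1 seed and 13.1% the PKR siRNA 2 seed. A match of letters was not taken as a site of action.

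PEG10 had 661, 683 and 627 normalised counts in the control siRNA libraries. It had 451, 462 and 483 in the PKR siRNA 1 libraries. In the PKR siRNA 2 libraries it had 51.7, 63.3 and 50.8. The 3 groups stood apart with no overlap, in the order control, PKR siRNA 1 and PKR siRNA 2. The place of the PKR siRNA 2 group was set by the selection of PEG10 on those libraries. No overlap with control was found for 51.7% of tested genes with PKR siRNA 1 and 54.3% with PKR siRNA 2. The group means were 657 ± 28.5, 465 ± 16.5 and 55.3 ± 6.95 (SD, n = 3 each). The spread between replicates was close to the counting error, which alone would give SDs of 25.8, 21.5 and 7.44 in these groups.

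SGCE had 39.0, 55.9 and 42.7 normalised counts in the control libraries, and 22.2, 22.7 and 28.9 in those of PKR siRNA 1. The PKR siRNA 2 libraries had 34.8, 39.7 and 48.0. The PKR siRNA 1 libraries were the lowest, and the PKR siRNA 2 libraries lay within the range of the control libraries except for the lowest of them. The means were 45.8 ± 8.86, 24.6 ± 3.76 and 40.8 ± 6.65 (SD, n = 3 each). Each value rested on only 20 to 52 reads, against 406 to 661 reads for PEG10 in the control and PKR siRNA 1 libraries.

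**Figure D1:**
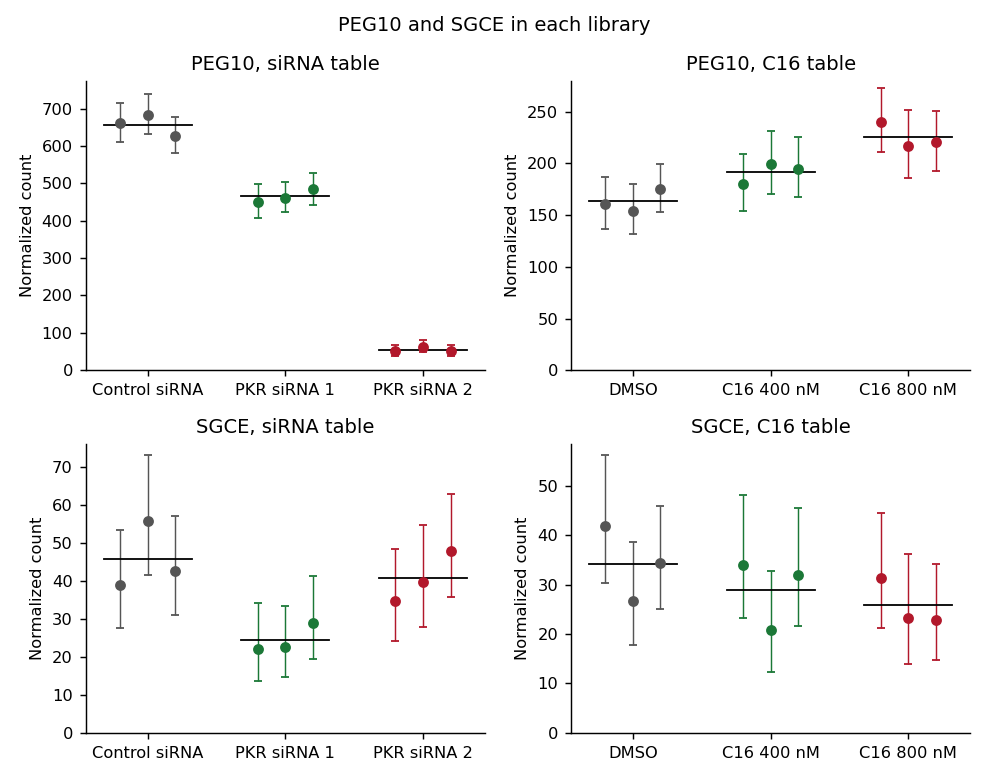
Normalised counts of PEG10 (top) and SGCE (bottom) in each library of the siRNA table (left) and the C16 table (right), on linear axes that start at 0. Points are libraries in replicate order, vertical bars are exact 95% Poisson intervals of the reads, which cover counting error only, and horizontal lines are group means. PEG10 separates the 3 siRNA groups and increases in steps across the C16 groups, whereas SGCE is lowest in the PKR siRNA 1 libraries.

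With PKR siRNA 1, both neighbours were lower than with control siRNA. SGCE fell by 0.86 on the log2(normalised count + 1) scale (SE 0.20, adjusted p = 0.000203, limma with Benjamini-Hochberg adjustment over all tested genes), with lower values in 3 of 3 libraries. PEG10 fell by 0.50 (SE 0.08, limma adjusted p = 6.10e-07), also in 3 of 3 libraries, which was less than the 1.5-fold required to call a gene raised or lowered. By that rule, SGCE was lowered and PEG10 was not, in a comparison in which 12.6% of the 10593 tested genes were lowered and 8.53% were raised. An adjusted p under 0.05 was reached by 45% of tested genes, and the groups did not overlap in 51.7%, so such differences were common. For each gene alone, the exact permutation test (two-sided) gave p = 0.1, the smallest that 3 against 3 libraries allow. The control libraries also entered the values on which PEG10 was chosen.

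With PKR siRNA 2, the PEG10 mean was 0.0841 times the control mean, a log2 difference of -3.55. This value chose the gene and ranked 4th from the lowest of all tested genes. SGCE, which starts 115 bases away, had a mean 0.890 times the control mean and a log2 difference of -0.16. Its groups overlapped and those of PEG10 did not, a contrast set by the selection of the pair on these libraries. Of all tested genes, 54.3% had no overlap in this comparison. Against PKR siRNA 1, the log2 difference was -3.06 for PEG10 and 0.71 for SGCE. In such bulk samples, fewer cells with an RNA and less RNA per cell cannot be told apart.

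Other long RNAs were then grouped by how often they matched the PKR siRNA 2 seed, a grouping made after the PEG10 value was seen and given as a description, with no test. The 1386 other tested gene models of at least 6628 exon bases were grouped by their matches in the last 6628 bases. In the PKR siRNA 2 comparison, 105 of 832 models with 0 matches were called lowered (12.6%), and 55 of 358 with 1 match (15.4%). Of 179 models with 2 or 3 matches, 44 were lowered (24.6%). Of 17 with at least 4, 9 were lowered (52.9%), with a median log2 difference of -0.62, against 0.08 for the models with 0 matches. Raised models numbered 116, 34, 13 and 0 in these groups, from fewest to most matches. Of all tested genes, 12.8% were lowered and 10.8% raised. In the PKR siRNA 1 comparison, the same groups had 14.8%, 16.2%, 21.8% and 17.6% of models lowered, and the 17 models had a median of -0.06. There, 52, 21, 13 and 0 models were raised, where 12.6% of all tested genes were lowered and 8.53% raised. Base composition and the coding share of these windows were not compared.

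**Figure D2:**
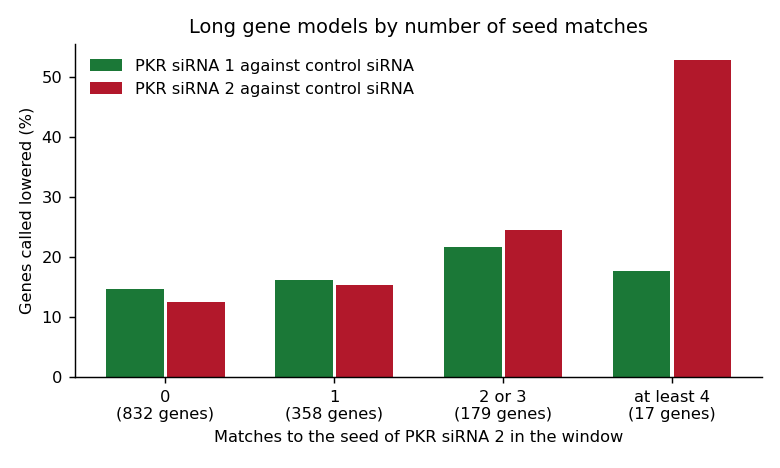
Percent of long gene models called lowered (linear axis from 0), by the count of PKR siRNA 2 seed matches in the last 6628 bases, with PKR siRNA 1 (green) and PKR siRNA 2 (red) against control siRNA; PEG10 is left out. The red bar of the 17 models with at least 4 matches reaches 52.9% and the green one 17.6%.

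The p-values measure the spread between libraries of a group, which may be technical, since the labels do not say that they came from separate cultures. Sums over genes listed as cell type markers also differed between these groups, although all came from PANC-1. The 5 fibroblast markers summed to 84.2 to 117 normalised counts in the control libraries, 26.3 to 32.2 for PKR siRNA 1 and 130 to 139 for PKR siRNA 2. COL1A1 was the only one abundant enough to be tested, and DCN was at 0 throughout. The log2 difference of COL1A1 from control was -1.86 with PKR siRNA 1 (lowered) and 0.22 with PKR siRNA 2 (not called). The 7 epithelial and ductal markers summed to 5552 to 5670, 3353 to 3554 and 9829 to 10463 in the same order. KRT8, KRT18 and KRT19 made up most of these sums, and the members did not all move together. Of the 7, PKR siRNA 1 libraries had 5 lowered and 0 raised (12.6% and 8.53% of all tested genes). Those of PKR siRNA 2 had 3 raised and 2 lowered (10.8% and 12.8% of all tested genes). EPCAM, an epithelial adhesion molecule, fell from 103 normalised counts to 12.3 and 10.7, and KRT7 fell to 4.64 with PKR siRNA 2. Other markers were lower than control with PKR siRNA 1 and higher with PKR siRNA 2. CDH1 had 18.7, 11.7 and 56.1 normalised counts in the control, PKR siRNA 1 and PKR siRNA 2 groups. KRT8 had 2527, 1294 and 4925, and KRT19 had 1214, 800 and 3016. The part of these differences in the SGCE and PEG10 values was not tested.

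In the C16 table, PEG10 increased with dose. It had 160, 154 and 175 normalised counts with DMSO. It had 180, 199 and 195 with C16 at 400 nM. At 800 nM it had 240, 217 and 220. The means were 163 ± 10.7, 191 ± 10.3 and 226 ± 12.5 (SD, n = 3 each), and no library of a group reached the range of the next. Such separation was common. It held for 39.6% of tested genes at 400 nM and 51.8% at 800 nM against DMSO, and 30.4% between the doses. At 800 nM, PEG10 rose by 0.47 on the log2 scale (SE 0.09, limma adjusted p = 4.98e-05; higher in 3 of 3 libraries), which was under 1.5-fold.

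At 400 nM, the difference of 0.23 (SE 0.09) missed the threshold, with a limma adjusted p of 0.0668. This call turned on 1 library. Without DMSO replicate 3, the highest of its group, the difference was 0.28 and the adjusted p 0.0370. From 400 nM to 800 nM, the difference was 0.24 (95% interval 0.05 to 0.43, limma adjusted p = 0.0812). The neighbouring doses of this order were thus not separated by the adjusted test. The groups did not overlap in these comparisons, as held for 39.6% of tested genes at 400 nM and 30.4% between doses.

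SGCE had 41.8, 26.7 and 34.3 normalised counts with DMSO. It had 34.03, 20.8 and 31.9 at 400 nM, and 31.3, 23.2 and 22.9 at 800 nM. These groups overlapped, with means of 34.2 ± 7.56, 28.9 ± 7.13 and 25.8 ± 4.76 (SD, n = 3 each). The log2 difference from DMSO was -0.24 at 400 nM (SE 0.23, limma adjusted p = 0.456) and -0.39 at 800 nM (SE 0.23, limma adjusted p = 0.158). The 95% interval at 800 nM was -0.84 to 0.06. Between the doses the difference was -0.14 (limma adjusted p = 0.730). Each value rested on 18 to 45 reads.

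The share of all genes past the thresholds was smaller at the lower dose. An adjusted p under 0.05 was reached by 26.5% of the 9963 tested genes at 400 nM, 44.9% at 800 nM and 14.3% between the doses. The share of genes with no overlap was 39.6%, 51.8% and 30.4%. At 400 nM, 7.08% of genes were raised and 5.45% lowered past 1.5-fold, and at 800 nM 11.6% and 14.1%. Neither neighbour was called at either dose. The epithelial and ductal markers summed to 7290 to 7715 with DMSO, 6145 to 6632 at 400 nM and 5275 to 5788 at 800 nM. Of 6 tested, 2 were lowered and 0 raised at 400 nM, and 2 lowered and 1 raised at 800 nM, where KRT19 fell by 1.49 and EPCAM rose by 0.74. Of the blood and vessel markers, CD68 alone was detected, PTPRC and CD3E being at 0, and the list summed to 51.0 to 57.3, 141 to 171 and 104 to 123. The part of these differences in the PEG10 and SGCE values was not tested. EIF2AK2, whose kinase C16 inhibits, differed from DMSO by -0.22 at 400 nM and 0.01 at 800 nM (limma adjusted p = 0.350 and 0.974).

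Levels of the neighbours can be compared with each other only per length. Per kb of exon, PEG10 had a mean of 99.1 normalised counts with control siRNA, above 88.4% of tested genes. The level was 70.2 with PKR siRNA 1, above 82.5%. For PKR siRNA 2 it was 8.34, above 21.9%. SGCE was in the middle of the range, with 25.3, 13.6 and 22.6 normalised counts per kb, above 55.0%, 36.5% and 51.7% of tested genes. PEG10 thus exceeded SGCE per kb in every control library, by 3.34 to 4.63 times, whereas in the PKR siRNA 2 libraries it was 0.289 to 0.435 times SGCE.

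In the C16 table, PEG10 had 24.6, 28.9 and 34.1 normalised counts per kb with DMSO, 400 nM and 800 nM, and SGCE had 18.9, 16.0 and 14.2. With DMSO, PEG10 was 1.05 to 1.58 times SGCE per kb. At 800 nM it was 2.10 to 2.63 times. The order of the neighbours was therefore the same in all 9 libraries of that table.

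**Figure D3:**
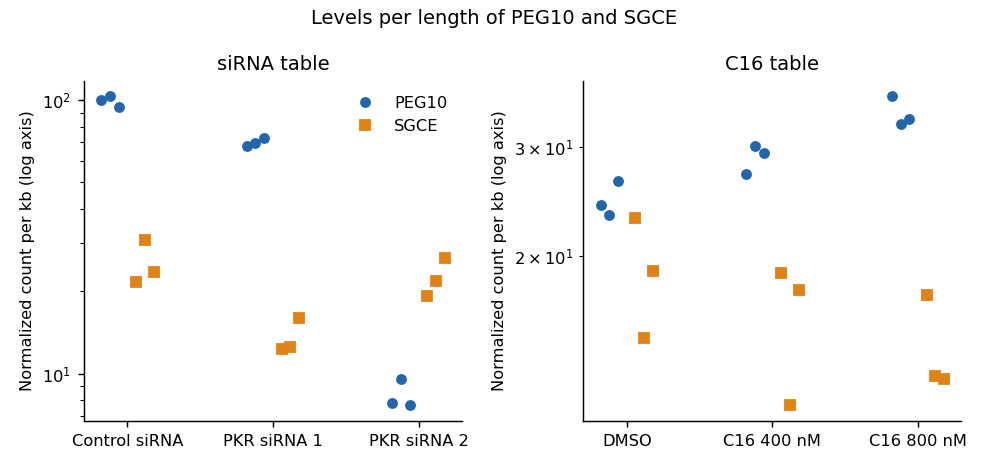
Normalised counts per kb of exon for PEG10 (blue circles) and SGCE (orange squares) in each library, on log axes that are set apart for the siRNA table (left) and the C16 table (right). PEG10 is above SGCE in all groups except PKR siRNA 2, where all 3 PEG10 points are below those of SGCE.

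The difference of the pair within a library, log2 PEG10 minus log2 SGCE, removes any factor that acts on the whole library. It was 3.83 ± 0.23 in the control libraries and 4.20 ± 0.16 (SD, n = 3 each) in those of PKR siRNA 1. The difference between these groups was 0.37, with an exact permutation p of 0.2, and the groups overlapped. With 3 against 3 libraries, this p cannot go below 0.1. In the PKR siRNA 2 libraries the value was 0.43 ± 0.31, a difference from control of -3.39 that is given without a test. With DMSO, 400 nM and 800 nM it was 2.24 ± 0.29, 2.71 ± 0.44 and 3.10 ± 0.17 (SD, n = 3 each). At 800 nM, the pair had moved apart by 0.85, with no overlap between groups and the smallest exact permutation p that this design allows (p = 0.1). At 400 nM, the difference of 0.47 had an exact permutation p of 0.2, and between doses the difference of 0.38 had an exact permutation p of 0.3. These values moved with single libraries: without C16 400 nM replicate 2, in which SGCE was lowest, the differences were 0.23 and 0.63, and without replicate 1 of that group 0.65 and 0.21. Adjusted over these 4 tests, the exact p-values were 0.267 for each comparison with a control and 0.3 between doses.

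The surrounding 7q21 region was followed in 15 listed genes that start between -1.08 and 1.67 Mb from the PEG10 start, among them other genes described as imprinted in mouse or human. Only 5 were tested in each table. CALCR, GNGT1 and COL1A2 were at 0 in every library, which at this depth does not exclude a low level. The others that were not tested had group means of at most 8.09 normalised counts in run 1 and 6.82 in run 2. Of those, PPP1R9A, the nearest gene beyond PEG10, had the highest mean in either table.

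With PKR siRNA 1, 0 of the 5 tested neighbours were raised and 0 lowered, where 8.53% of all tested genes were raised and 12.6% lowered, with a median log2 difference of -0.25 against -0.01 over all tested genes. PON2, a paraoxonase, fell by 0.58 (SE 0.09, limma adjusted p = 4.40e-07), which was under 1.5-fold. The values were -0.25 for CASD1, a sialic acid O-acetyltransferase on the far side of SGCE, and -0.16 for SLC25A13, a mitochondrial aspartate/glutamate carrier. GNG11 was at -0.25 and BET1 at 0.18. None of these 4 passed the test.

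Under PKR siRNA 2, 1 of the 5 was lowered and 0 were raised, where 12.8% of all tested genes were lowered and 10.8% raised. GNG11, a G protein gamma subunit, fell by 1.07 (SE 0.21, limma adjusted p = 1.21e-05). SLC25A13 fell by 0.38, under 1.5-fold (limma adjusted p = 0.000495). CASD1 differed by -0.01, PON2 by -0.11 and BET1 by -0.46, none past the test. PEG10 was chosen for its -3.55, so the smaller changes of these neighbours say nothing further about it.

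With C16, 0 of the 5 were called at 400 nM, where 7.08% of all tested genes were raised and 5.45% lowered. At 800 nM, 2 were lowered, where 14.1% of all tested genes were lowered and 11.6% raised. The values at 400 nM ran from -0.67 for BET1 to -0.14 for SLC25A13. At 800 nM, BET1, a SNARE protein of traffic between the endoplasmic reticulum and the Golgi, fell by 1.71 (SE 0.33, limma adjusted p = 2.40e-05), from a mean of 22.7 normalised counts to 6.89. CASD1 fell by 0.62 (limma adjusted p = 0.0296). No tested neighbour passed the test in the direction of PEG10, and the value of GNG11 was 0.43 (limma adjusted p = 0.161).

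**Figure D4:**
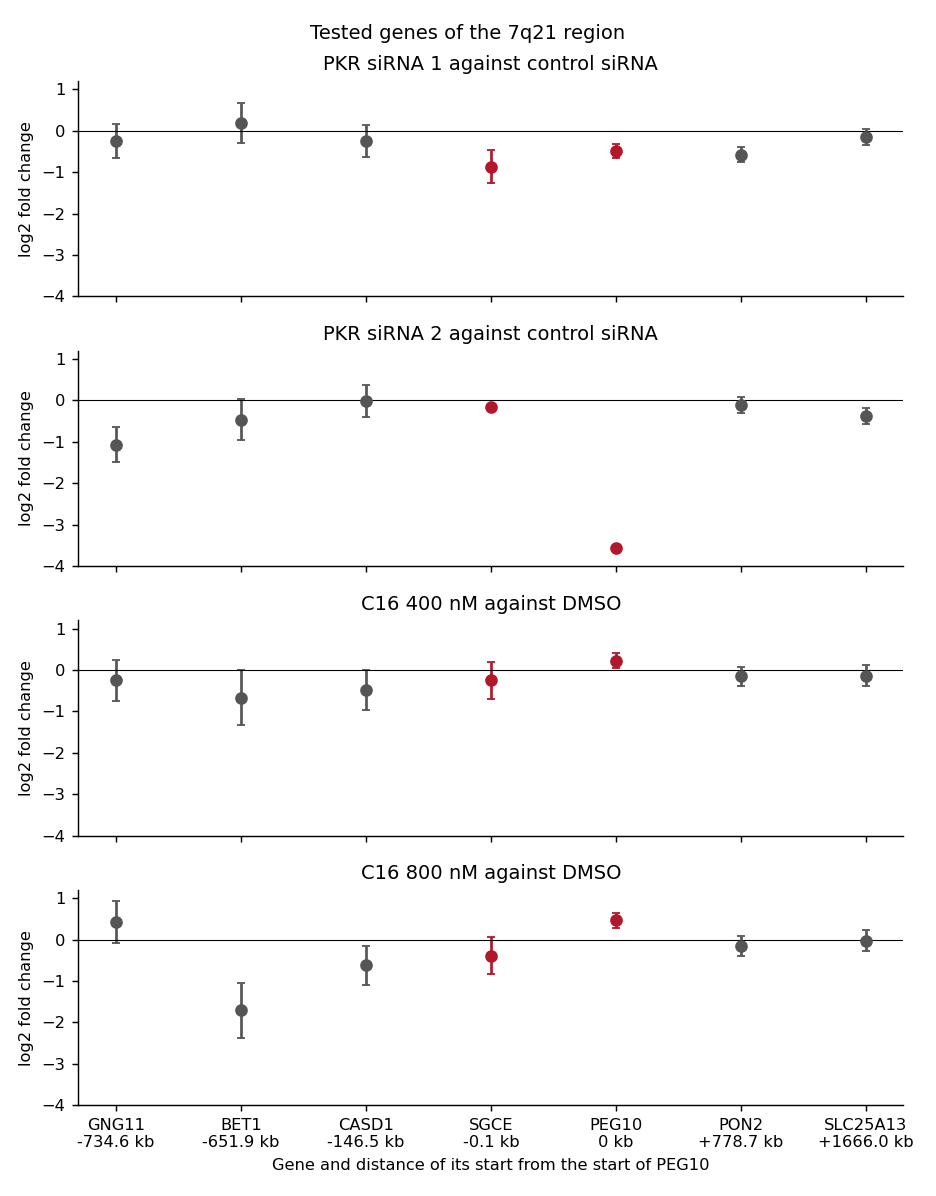
log2 fold changes of the 7 tested genes of the 7q21 region, PEG10 and SGCE in red, in order along the chromosome with the distance of each start from that of PEG10. Bars are 95% limma intervals and are left out for PEG10 and SGCE with PKR siRNA 2, whose values chose the pair. PEG10 stands at -3.55 in that panel while the other 6 genes lie between -1.07 and -0.01.

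PEG10 belongs to a family of genes domesticated from retroviral or retrotransposon gag sequences. Of 23 listed relatives, 9 were tested in each table. With PKR siRNA 1, 3 were lowered and 0 raised (12.6% and 8.53% of all tested genes). C22orf29 (RTL10) fell by 0.85, LDOC1L (RTL6) by 0.73 and FAM127A (RTL8C) by 0.63, and the median of the list was -0.28. FAM127A has near-identical copies, so its reads may be split with FAM127B and FAM127C. Relative to control, PKR siRNA 2 libraries had 4 lowered and 1 raised (12.8% and 10.8% of all tested genes), with a median of 0.06. PNMA2, a paraneoplastic antigen gene, fell by 1.03 and MOAP1, a modulator of apoptosis, by 0.75. C22orf29 fell by 0.74 and LDOC1L by 0.60, whereas RGAG4 (RTL5) rose by 0.83. With C16, 0 were called at 400 nM, where 7.08% of all tested genes were raised and 5.45% lowered. At 800 nM, 0 were raised and 2 lowered (11.6% and 14.1% of all tested genes), LDOC1L by 0.75 and PNMA1 by 0.62, and the median was -0.26.

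SGCE acts with the dystrophin-glycoprotein complex, of which 7 of 17 listed genes were tested. With PKR siRNA 1, 2 were lowered and 0 raised (12.6% and 8.53% of all tested genes), and the median was -0.51. UTRN, the dystrophin homologue utrophin, fell by 0.71. SGCB, another sarcoglycan, fell by 0.51, under 1.5-fold (limma adjusted p = 0.00244). For PKR siRNA 2, only UTRN was lowered, by 0.76, where 12.8% of all tested genes were lowered, and the median was 0.30. SGCB and DAG1, the dystroglycan precursor, rose by 0.53 and 0.49, both under 1.5-fold (limma adjusted p = 0.00135 and 2.02e-08). With C16 at 400 nM, 0 were called, where 7.08% of all tested genes were raised and 5.45% lowered. At 800 nM, where 14.1% of all tested genes were lowered, DAG1 was the only one, by 0.72, and the median was -0.15.

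**Figure D5:**
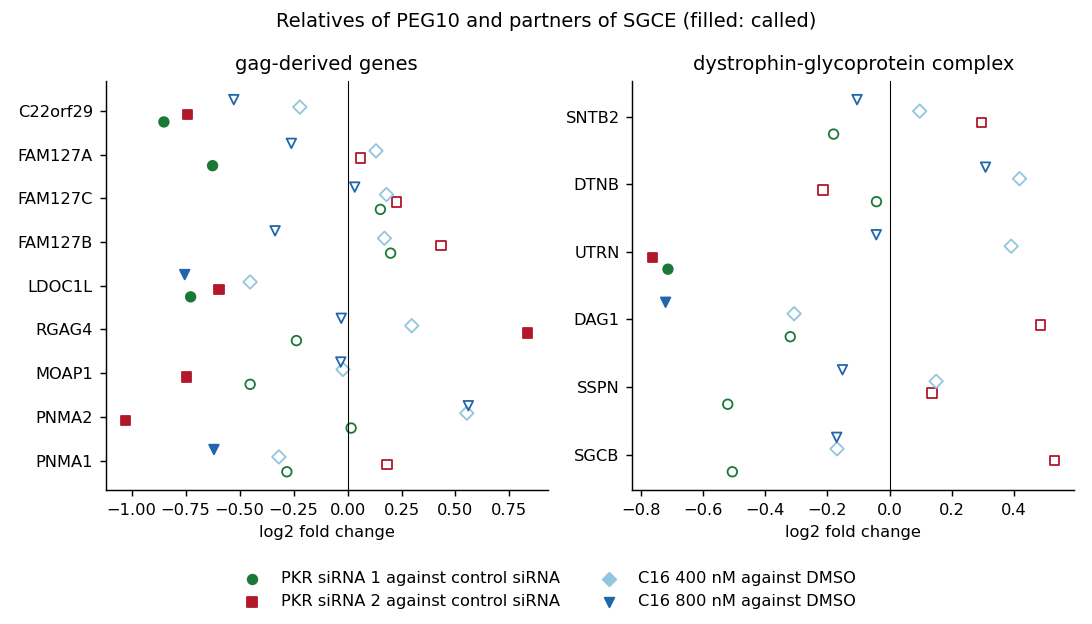
log2 fold changes of the tested relatives of PEG10 (left) and of tested genes of the dystrophin-glycoprotein complex (right, 1 tested gene not drawn) in the 4 comparisons with a control. Filled symbols passed an adjusted p of 0.05 and 1.5-fold. Filled symbols are mostly to the left of 0, with RGAG4 the exception, and at 400 nM none is filled.

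Imprinted genes of other loci moved in both directions. Of 19 tested with PKR siRNA 1, 1 was raised and 2 were lowered (8.53% and 12.6% of all tested genes). The maternally expressed H19 fell by 2.35, from 18.6 to 3.25 normalised counts, and the paternally expressed MEST by 0.97, whereas GRB10 rose by 0.78. With PKR siRNA 2, 3 were raised and 4 lowered (10.8% and 12.8% of all tested genes). H19 rose by 2.25, PLAGL1 by 1.17 and MKRN3 by 1.00, and SLC22A18 fell by 1.21. MEG3, a maternally expressed long RNA, fell by 0.76. With C16 at 400 nM, 4 of 17 were raised and 1 was lowered (7.08% and 5.45% of all tested genes). At 800 nM, 8 were raised and 1 was lowered (11.6% and 14.1% of all tested genes). MEG3 rose by 1.88 at 400 nM and by 1.42 at 800 nM. H19 fell by 1.05 at 400 nM and fell by 1.89 at 800 nM. The medians at these doses were 0.34 and 0.51, against 0.00 over all tested genes.

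A further list held genes that keep or erase imprints. Of 13 tested with PKR siRNA 1, only the methyltransferase gene DNMT3A was lowered, by 1.46, and 0 were raised, where 12.6% of all tested genes were lowered and 8.53% raised. In the PKR siRNA 2 libraries, 3 were lowered and 1 raised (12.8% and 10.8% of all tested genes). DNMT3A fell by 0.89, DNMT3B by 0.69 and the histone methyltransferase gene EHMT2 by 0.75, whereas TET2, which oxidises methylcytosine, rose by 0.73. With C16, 0 of the 13 were called at either dose. Of all tested genes, 7.08% were raised and 5.45% lowered at 400 nM, and 11.6% and 14.1% at 800 nM.

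A last list held transcription factors reported to act on PEG10 and proteins reported to act with it, and 11 of 14 were tested. With PKR siRNA 1, 2 were raised and 1 was lowered (8.53% and 12.6% of all tested genes). MYC rose by 1.04 and the ubiquitin ligase gene SIAH2 by 0.73, and E2F2 fell by 0.71 (limma adjusted p = 0.0189). Among PKR siRNA 2 differences, 0 were raised and 2 lowered (10.8% and 12.8% of all tested genes), E2F3 by 0.87 and E2F4 by 0.60. With C16, 1 was raised at 400 nM and 2 at 800 nM, where 7.08% and 11.6% of all tested genes were raised. E2F2 rose by 0.79 at 400 nM and by 1.13 at 800 nM, and SIAH2 rose by 0.80 at 800 nM. The other tested genes of the list were not called at either dose, where 5.45% and 14.1% of all tested genes were lowered.

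The genes whose library pattern was nearest to that of PEG10 and SGCE were found by the root mean square difference of log2 values from the control mean, over the 9 libraries of a table and leaving out genes whose mean was under 50. In the siRNA table, SH3PXD2A, at 0.576, and MRPL42, at 0.606, were among the 3 nearest to PEG10 of 6773 genes. This distance includes the PKR siRNA 2 libraries on which PEG10 was chosen, so it is a description only. MRPL42, a mitochondrial ribosomal protein, had 119, 120 and 17.3 normalised counts in the control, PKR siRNA 1 and PKR siRNA 2 groups. SGCE had nearer genes, which were REV3L, MAP4K4 and YLPM1, at 0.153 to 0.165. REV3L, the catalytic subunit of a translesion DNA polymerase, had 272, 149 and 235.

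In the C16 table, the distances from PEG10 were smaller. RPA1, a single-stranded DNA binding protein, lay at 0.0552, and the poly(A) binding protein genes PABPC1 and PABPC4 at 0.0653 and 0.0680, out of 5322. RPA1 had 213, 251 and 287 normalised counts with DMSO, 400 nM and 800 nM. SGCE was nearest to SERINC5, HNRNPUL2 and RREB1, at 0.155 to 0.175.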

How the data were processed

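Per the labels and the methods, the authors made poly(A) libraries with a directional kit, sequenced paired ends, mapped reads to hg38 with TopHat, counted them over genes with featureCounts and scaled each run by TMM with TCC. The annotation and strand setting are not given in the sources used here. The deposited values are normalised counts (a signal), from which whole reads were recovered within 0.01 read. The members and gene lists were chosen with earlier results of these data known.

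Genes with a table mean of at least 10 were tested on log2(value + 1) with limma 3.58.1 in R 4.3.3 over the 9 libraries of a table, with Benjamini-Hochberg adjustment. A call needed an adjusted p under 0.05 and 1.5-fold, and fold changes of low genes are understated by the pseudocount. Listed genes were named when called, up to 4 a list and comparison, with all 7q21 neighbours and the 3 nearest patterns. Other members were named where the text compares them, and some items of these lists and searches are not reported here. The tests were tried on simulated data. Alternatives were other pseudocounts (0.5 and 5), filters, scaling, edgeR 4.0.16 and DESeq2 1.42.0 on recovered reads, a replicate block, and leaving out each library. All 18 replicate pairs differed beyond counting error, so none were merged. Sequences and coordinates were read from hg38 with GENCODE release 44.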

Additional observations from a re-analysis of the deposited data

How the results depend on the processing

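In the comparisons without PKR siRNA 2, PEG10 and SGCE kept their direction under every alternative run in which they had a value. They also kept their side of the adjusted p threshold, apart from PEG10 at 400 nM without DMSO replicate 3 (0.28, limma adjusted p = 0.0370). That difference was 0.19 to 0.28 over the libraries left out in turn. For PKR siRNA 2 against control, given with no test, leaving out libraries gave -3.65 to -3.50 for PEG10 and -0.28 to -0.01 for SGCE. Adjusted p ranged from 3.16e-12 to 0.0126 for PEG10 and 0.000131 to 0.0263 for SGCE with PKR siRNA 1 (limma, edgeR or DESeq2), and from 1.49e-05 to 0.00651 for PEG10 at 800 nM. Counts of called genes changed by more than 1.5-fold only in the C16 table. In the siRNA table they also fell with a minimum mean of 30. There, 904 raised and 1331 lowered with PKR siRNA 1 became 637 and 1000. With PKR siRNA 2, 1140 and 1353 became 783 and 1017. In the C16 table at 400 nM, 705 raised and 543 lowered became 420 and 231 with no filter, and 296 were lowered with a minimum mean of 30. At 800 nM, 1403 lowered became 800 with that minimum. Between doses, 113 raised and 394 lowered became 26 and 98 with no filter, 51 and 137 with DESeq2, and 231 lowered with a minimum mean of 30.

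SGCE had no value with that minimum in the C16 table, and DESeq2 gave it no adjusted p between doses. edgeR on the recovered reads called 954 raised and 1310 lowered genes with PKR siRNA 1, 1240 and 1319 under PKR siRNA 2, 700 and 619 at 400 nM, 1229 and 1425 at 800 nM, and 136 and 321 between doses. Replicate numbers are shared between groups, but deviations of same-numbered libraries correlated at only -0.05 to 0.03. With the replicate block, the counts were 905 and 1332, 1136 and 1353, 699 and 540, 1158 and 1396, and 115 and 391, and PEG10 and SGCE kept their differences (-0.50 and -0.86 with PKR siRNA 1). Leaving out single libraries moved uncalled SGCE values at 400 nM from -0.03 (without C16 400 nM replicate 2) to -0.41 (without DMSO replicate 2), and between doses from -0.01 to -0.36. SGCE rested on 18 to 52 reads per library.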
